A study of Mus musculus with 15 samples.

Results

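Fetal mouse intestine with a catalytically dead caspase-8 was compared with intestine that kept wildtype caspase-8, both without Mlkl, across all genes and with the epithelial maturity of each library in view. The comparison uses 10 of the 15 libraries of the study: 5 labelled Casp8 C362A knockin with Mlkl knockout (C362A) and 5 labelled Casp8 wildtype with Mlkl knockout (wildtype). They were chosen by these genotype labels alone. The other 5 libraries, with Casp8 and Mlkl both knocked out (knockout), entered the fits to estimate the spread and stand beside the results where they bear on them. All embryos were at embryonic stage E16.5, all groups lacked Mlkl, and no library came from an embryo with functional Mlkl. Under diagnosis, the labels give inflammation for the C362A samples and normal for the rest. They give neither litter, sex nor batch, and nothing says whether the libraries of a group came from separate embryos, so the p-values measure the spread between these libraries.

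Caspase-8 is the initiator protease of death-receptor apoptosis, and it also restrains necroptosis, the lytic death carried out by the pseudokinase MLKL. The C362A substitution removes the catalytic cysteine and leaves a protein that can still be recruited to its signalling complexes. The fetal intestinal epithelium, in turn, passes in late gestation from a proliferating sheet to villi covered by enterocytes, which switch on apolipoproteins, lipid handling enzymes, brush border hydrolases and endocytic receptors. A library taken from a slightly younger or less advanced gut therefore carries less of these transcripts. In whole tissue, fewer cells of a type and less RNA per cell cannot be told apart.

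Depth was even, with 31896399 to 38532127 counts per library and 22295 to 24039 genes with a count. Casp8 was at 64.4 to 72.8 CPM (counts scaled to the size of each library) in the C362A libraries, 62.3 to 77.5 in wildtype and 14.4 ± 1.65 (SD, n = 5) in knockout, and Mlkl was under 1 CPM in every library. Gene-level counts cannot show a single substitution such as C362A. By the deposited length-scaled values (RPKM), the tissue carried intestinal epithelium, with Epcam at 333 to 469 and the enterocyte gene Fabp1 at 2322 to 8089, beside smooth muscle (Acta2, 444 to 735) and fibroblasts (Col1a1, 221 to 418). The T cell marker Cd3e was at 0 to 0.130 and the neutrophil marker Ly6g at 0 to 0.326. C362A replicates 1, 4 and 5 stood apart. Replicate 1 had 4 counts of the posterior Hox gene Hoxa10 and knockout replicate 4 had 7, against 178 to 579 in the other 13 libraries. Replicate 4 had 1833 counts of the squamous keratin Krt13, against 1 to 30 elsewhere. Replicate 5 had the highest mean of a hypoxia and glycolysis list among the C362A libraries, at 6.69 log2 CPM against 5.90 to 6.03 in the other 4. Y-linked genes were at or near 0 in C362A replicates 2, 3 and 5 and in wildtype replicate 5, that is, in 3 of 5 libraries of one group and 1 of 5 of the other.

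The epithelial maturity score was lower in C362A on average, by an amount close to the SD within either of these 2 groups. A maturity score was computed for each library as the mean log2 CPM of 29 enterocyte genes minus that of 12 genes expressed throughout the epithelium. In C362A replicates 1 to 5 it was −0.235, 0.423, 0.259, 0.360 and 0.791. In wildtype replicates 1 to 5 it was 0.270, 0.792, 0.937, 1.374 and 0.450. The groups overlapped, with C362A replicate 1 below all other libraries and wildtype replicate 4 above them. The means were 0.320 ± 0.370 and 0.764 ± 0.432 (SD, n = 5 each), a difference of −0.445. Knockout libraries lay between 0.675 and 1.214. In C362A and in knockout the lowest score was that of the library short of posterior Hox transcripts (replicate 1 and replicate 4). A proximal gut list of 5 genes, 3 of them outside the score, also had a lower mean in C362A. Its range was 6.469 to 6.978 log2 CPM in C362A and 6.355 to 7.597 in wildtype. Whether the stretch of gut taken bears on the score was not tested. The score and its lists were chosen with earlier results known, so no p-value is given.

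The enterocyte part of the score differed between the groups more than the pan-epithelial part. The pan-epithelial mean lay between 7.393 and 7.497 log2 CPM in C362A and between 7.418 and 7.695 in wildtype. Epcam, the epithelial adhesion molecule, was at 905, 839, 831, 806 and 896 CPM in C362A replicates 1 to 5 and at 872, 821, 987, 891 and 818 CPM in wildtype. Apoa4, an apolipoprotein of chylomicrons and the most abundant enterocyte gene of the list, was at 1414, 2749, 2223, 2450 and 4299 CPM in C362A. In wildtype it was at 2407, 4976, 6385, 11037 and 2575 CPM. The groups overlapped, and the spread within wildtype alone was wider than the distance between the group means (log2 difference −1.06, SE 0.38, Benjamini-Hochberg adjusted p = 0.285 in edgeR's quasi-likelihood test). Of 29 enterocyte genes tested, 28 were lower in C362A, 18 of them at an unadjusted p under 0.05 and 0 after adjustment, with a median of −0.57. Over all genes, 7.80% were lower at that unadjusted level. The 29 genes are those of the score, so their count is no result apart from the score difference. Lipid handling genes (10, median −0.66) and brush border genes (19, median −0.50) both took part, with 0 called in either. Among 18 intestinal transcription factor genes the median was −0.14, and 0 were called. Fabp1, the fatty acid carrier, ran from 1166 CPM in C362A replicate 1 to 2855 in C362A replicate 5. Its adjusted p was 0.316 in that edgeR test.

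**Figure D1:**
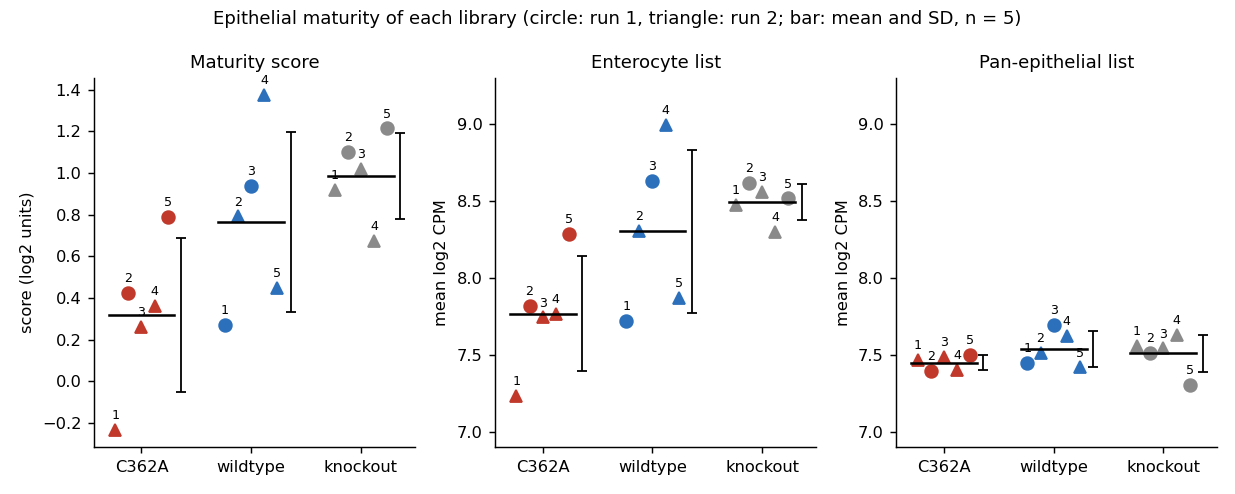
Maturity score and its 2 component list means (mean log2 CPM) for each library, with numbers for replicates, circles and triangles for the 2 runs of sample ID numbers, a bar for the group mean and a bracket for the SD (n = 5). The enterocyte mean spreads from 7.233 to 8.997 while the pan-epithelial mean stays between 7.30 and 7.70.

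The score difference was not the same along the labels' sample ID numbers. These form 1 unbroken series in which the order C362A, wildtype, knockout occurs 2 times, and the series was divided where the order starts again. The labels do not mark this boundary, so the 2 runs are an inferred division. In run 1 (2 C362A and 2 wildtype libraries) the C362A mean exceeded the wildtype mean by 0.004. In run 2 (3 and 3 libraries) it lay below it by 0.744, that is, at a difference of −0.744. Nothing says that a run is a litter or a batch. In run 1 the C362A libraries (replicates 2 and 5) had Y-linked genes at or near 0, while the wildtype libraries (replicates 1 and 3) expressed them. Genotype and Y-linked expression therefore cannot be told apart inside run 1. Leaving out 1 library at a time gave differences from −0.569 to −0.293, the latter without wildtype replicate 4.

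A large part of the transcriptome moved with the score inside genotypes. With the score as a covariate and 1 mean per genotype, 2437 of 18329 genes had a positive slope (13.3%) and 2397 a negative slope (13.1%) at an adjusted p under 0.05 in edgeR's test. The 41 genes that make up the score were not counted. Asah2, the neutral ceramidase of the brush border, was at 40.4, 66.6, 69.8, 77.5 and 138 CPM in C362A replicates 1 to 5. In wildtype replicates 1 to 5 it was at 62.1, 104, 133, 246 and 71.6 CPM, so the wildtype libraries stood in the order of their scores, and the least and the most mature C362A libraries were also its lowest and highest. Its slope was 1.77 (log2 units of expression per log2 unit of score, adjusted p = 1.6e-08 by edgeR). The other genes with the smallest p and a positive slope were the lysosomal transporter gene Slc46a3 (slope 2.46), guanine deaminase Gda (1.63), the peptidase Ace (2.60) and Gm11651 (2.68), whose locus overlaps that of Ace. Reads of those overlapping loci cannot be told apart without strand.

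Genes of dividing cells were among those that ran the other way. Cks1b, a cyclin-dependent kinase subunit, was at 48.4 CPM in the least mature library, C362A replicate 1, and at 23.2 CPM in the most mature, wildtype replicate 4 (slope −0.80, adjusted p = 1.02e-06 by edgeR). Mad2l1, a spindle checkpoint gene, had a slope of −0.70, Ranbp1, which encodes a Ran-binding protein, −0.69, Lyar −0.73 and Nkain1 −0.95. Of 23 genes of a proliferation list, 21 had a called negative slope and none a called positive one. Of 33 interferon-stimulated genes tested, 24 had a called positive slope. Of 21 inflammasome and pyroptosis genes, 10 had one, Naip5 among them (slope 1.10), which encodes a flagellin sensor. The called slopes were 9 of 19 in the death receptor and necroptosis list and 8 of 15 in the MHC class I list, and these too were positive.

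Compared as measured, C362A intestine had 15 genes higher than wildtype and 0 lower, of 18370 tested (0.0817%) by edgeR's quasi-likelihood test at an adjusted p under 0.05. At an unadjusted p under 0.05, 1485 genes were higher (8.08%) and 1432 lower (7.80%). By DESeq2 the calls numbered 47 and 7, and by limma-voom 14 and 0. All 15 separated the groups, and over all genes 213 did so in either direction (1.16%). Because of that separation the 15 had to be higher in both runs of sample ID numbers, so the runs add no separate support. The differences were 0.47 to 2.22 log2 units in run 1 and 0.56 to 2.61 in run 2. One of the 15 is an unnamed ID whose counts equal those of Ccl12 in all 15 libraries, so 14 genes are described. With the Y-linked mean as a covariate 7 genes were called, as when C362A replicate 2, C362A replicate 3 or wildtype replicate 5 was left out.

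Chemokines made up 2 of the calls. Cxcl10, an interferon-inducible ligand of the receptor CXCR3, was at 5.42, 4.002, 4.45, 4.23 and 3.36 CPM in C362A replicates 1 to 5. In wildtype it was at 0.839, 0.768, 0.655, 0.850 and 0.560 CPM. Every C362A library lay above every wildtype library (log2 fold change 2.54, SE 0.20, adjusted p = 7.96e-06 by edgeR). The knockout libraries fell between them, at 1.62 to 2.94 CPM. Ccl12, a monocyte chemoattractant, was at 1.21, 1.22, 1.26, 0.753 and 1.20 CPM in C362A and at 0.492, 0.411, 0.208, 0.327 and 0.346 CPM in wildtype (1.65, SE 0.26, adjusted p = 0.0145 by edgeR). Ccl12 rests on few reads, and leaving out single libraries or changing the method lost its call in 7 of 20 alternatives.

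The sequence upstream of the Cxcl10 start site is shown because it holds matches to motifs of both interferon and NF-kB signalling. It covers the 250 bases before the start (RefSeq, GRCm38.p6, chr5:92348890-92349139, minus strand), with matches in capitals. The searched letters were TTTCNNTTTC for the interferon-stimulated response element (ISRE), GGGNNNNNCC for the kB element and TTCNNNGAA for the gamma-activated site (GAS), on both strands and with overlapping matches kept. Madcam1 (chr10:79664309-79664558, plus strand) is shown for its paired kB matches, and Ddx60 (chr8:61927837-61928086, plus strand), described further on, for its paired ISRE matches.
Cxcl10: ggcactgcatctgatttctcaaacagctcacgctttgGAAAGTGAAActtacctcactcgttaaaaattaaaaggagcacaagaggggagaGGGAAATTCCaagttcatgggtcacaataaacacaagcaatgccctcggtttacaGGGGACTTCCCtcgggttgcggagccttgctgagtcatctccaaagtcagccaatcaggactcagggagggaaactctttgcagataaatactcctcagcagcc
Madcam1: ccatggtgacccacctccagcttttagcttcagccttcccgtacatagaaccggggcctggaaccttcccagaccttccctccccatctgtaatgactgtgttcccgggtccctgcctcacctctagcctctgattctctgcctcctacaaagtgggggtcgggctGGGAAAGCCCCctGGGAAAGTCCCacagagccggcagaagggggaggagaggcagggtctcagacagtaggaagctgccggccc
Ddx60: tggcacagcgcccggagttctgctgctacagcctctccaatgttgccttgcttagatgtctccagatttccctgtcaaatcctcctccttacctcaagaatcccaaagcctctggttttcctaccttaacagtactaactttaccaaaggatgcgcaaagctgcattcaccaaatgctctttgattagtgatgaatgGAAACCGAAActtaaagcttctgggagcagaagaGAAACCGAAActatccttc
In Cxcl10 the ISRE match lay 213 to 204 bases before the start and the kB matches at 159 to 150 and 104 to 94 bases. Over 32851 RefSeq promoters of the same length, 2.98% held the ISRE letters, 45.8% the kB letters and 7.02% the GAS letters. Among the 18 entries called in either fit, 13 had a promoter sequence, with 15 start sites. Of these 15, 5 held an ISRE match, 8 a kB match and 4 a GAS match. The Serpina3f start sites have overlapping windows, and their GAS matches are the same bases counted once for each. A match describes letters, not binding.

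A group of 5 called genes is best known from macrophages and related myeloid cells; the grouping was made after the calls were seen. Slamf8, a receptor of the SLAM family on macrophages, was at 2.09, 2.27, 2.64, 1.62 and 1.62 CPM in C362A and at 0.405, 0.494, 0.446, 0.588 and 0.320 CPM in wildtype (2.18, SE 0.23, adjusted p = 0.000295 by edgeR). Mgl2, a galactose-binding lectin of macrophages and dendritic cells, was at 1.43, 1.46, 1.59, 1.65 and 1.62 CPM against 0.260, 0.466, 0.565, 0.425 and 0.400 CPM (1.87, SE 0.21, adjusted p = 0.000548 by edgeR). Both genes separated the groups without overlap. Spic, the transcription factor of iron-recycling macrophages, was at 1.06, 1.001, 1.05, 1.36 and 1.59 CPM against 0.318, 0.439, 0.208, 0.229 and 0.293 CPM (2.01, SE 0.26, adjusted p = 0.00201 by edgeR). Clec4n, which encodes the fungal receptor dectin-2, was at 3.77, 4.14, 4.48, 4.43 and 4.94 CPM against 1.82, 1.92, 2.53, 2.16 and 2.02 CPM (1.06, SE 0.14, adjusted p = 0.00201 by edgeR). Adgre1, the gene of F4/80, was at 13.7, 12.8, 16.1, 15.5 and 13.6 CPM against 8.76, 9.22, 7.59, 9.38 and 7.65 CPM (0.75, SE 0.13, adjusted p = 0.0361 by edgeR). Its call was lost in 12 of 21 alternatives.

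The broader macrophage list moved less than these genes. Of 23 macrophage and monocyte genes tested, 20 had a positive log2 fold change, 7 an unadjusted p under 0.05 in that direction and 1, Adgre1, was called. The median was 0.20, beside 0.01 over all genes, of which 8.08% were higher at that unadjusted level. The list mean lay between 3.08 and 3.47 log2 CPM in C362A and between 2.94 and 3.34 in wildtype, so the groups overlapped. Lyz2, the macrophage lysozyme, was at 32.4, 36.5, 67.1, 88.2 and 28.9 CPM against 24.2, 27.1, 21.4, 27.8 and 26.0 CPM (adjusted p = 0.285 by edgeR), with C362A replicates 3 and 4 far above the rest.

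A secreted protease and a nuclease were also called. Mmp9, a gelatinase of neutrophils and other myeloid cells, was at 26.5, 35.7, 45.1, 38.0 and 39.8 CPM in C362A replicates 1 to 5 and at 12.4, 18.6, 16.2, 19.6 and 11.99 CPM in wildtype (1.23, SE 0.16, adjusted p = 0.00201 by edgeR). Neutrophil markers were not uniformly high beside it. The neutrophil list includes Mmp9 itself, its only called gene. Of 14 neutrophil genes tested, 13 were higher, with a median log2 fold change of 0.89 that was 0.54 without C362A replicate 4. The list mean ranged from 0.019 to 2.293 log2 CPM in C362A and from −0.139 to 1.097 in wildtype. Its lowest C362A value was that of replicate 5, which had 39.8 CPM of Mmp9, and the part of neutrophils in the Mmp9 difference was not tested. Dnase1l3, a secreted DNase that degrades DNA in chromatin, was at 6.97, 8.25, 8.48, 6.40 and 12.2 CPM against 2.63, 3.84, 3.72, 4.28 and 2.74 CPM (1.30, SE 0.21, adjusted p = 0.0145 by edgeR). Its call was lost in 5 of 21 alternatives.

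The remaining calls were 2 protease inhibitors, 2 genes of lymphocyte biology and a restriction factor. Serpina3f, a serine protease inhibitor gene, was at 0.903, 0.892, 0.872, 1.04 and 0.749 CPM against 0.231, 0.219, 0.0893, 0.261 and 0.133 CPM (2.24, SE 0.31, adjusted p = 0.00275 by edgeR). Serpina3g, its neighbour on chromosome 12, was at 4.33, 5.79, 4.78, 4.52 and 3.96 CPM against 2.37, 1.26, 1.10, 2.52 and 1.01 CPM (1.504, SE 0.24, adjusted p = 0.0145 by edgeR). The Serpina3 genes of this cluster are similar in sequence, and unique-read counting may split or lose their reads. Il2rg, the common gamma chain of cytokine receptors, was at 10.4, 12.1, 12.5, 12.2 and 10.2 CPM against 8.27, 5.79, 7.68, 6.15 and 6.13 CPM (0.75, SE 0.13, adjusted p = 0.0201 by edgeR). Madcam1, the addressin of gut endothelium that lymphocytes bind, was at 20.1, 21.9, 28.2, 22.7 and 22.7 CPM against 13.8, 15.6, 18.8, 14.6 and 11.3 CPM (0.64, SE 0.12, adjusted p = 0.0431 by edgeR). Apobec3, an antiviral cytidine deaminase, was at 13.9, 13.4, 13.9, 14.9 and 14.02 CPM against 9.40, 8.996, 9.34, 10.4 and 9.57 CPM (0.56, SE 0.10, adjusted p = 0.0245 by edgeR). The calls of Madcam1, Apobec3 and Il2rg were lost in 13, 10 and 9 of 21 alternatives, and that of Serpina3g in 7 of 20.

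**Figure D2:**
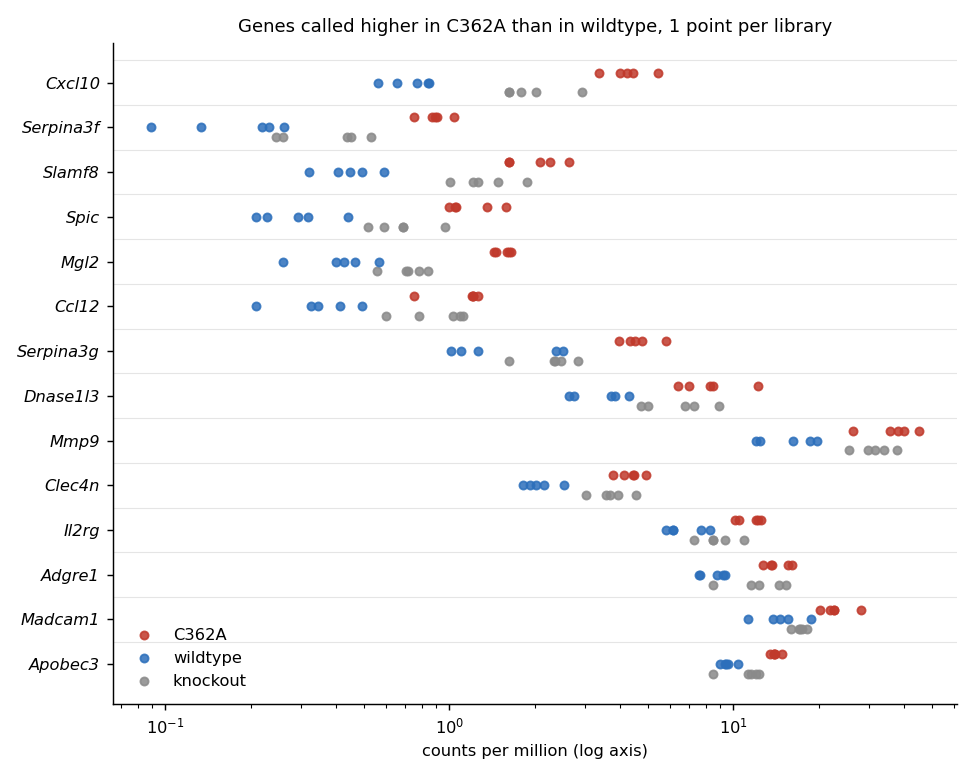
CPM (log axis) of the 14 named genes called higher in C362A than in wildtype, 1 point per library, with knockout beside them. For each gene all 5 C362A points lie to the right of all 5 wildtype points, and the knockout mean lies between the 2 group means.

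The same contrast was then taken at equal maturity score, to see which differences remain between libraries placed on 1 line of expression against score. Again 15 genes were higher and 0 lower, of 18329 tested (0.0818%) by edgeR. At an unadjusted p under 0.05, however, the counts fell to 726 higher (3.96%) and 416 lower (2.27%). By DESeq2 the calls numbered 51 and 6, and by limma-voom 13 and 0. The 2 sets of 15 shared 12 entries. Whether a low score precedes or follows the change in caspase-8 was not tested. The score cannot separate an effect of genotype on maturation from a difference in age between embryos or in the stretch of gut taken.

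Fewer genes differed at the unadjusted level once the score entered. Of 1485 genes higher at an unadjusted p under 0.05, 436 were still so at equal score. Of 1414 tested genes that were lower, 173 were. Among those 1414, 800 had a called positive slope, and among the 1485, 471 had a called negative slope. Over all genes, 13.3% had a called positive slope and 13.1% a called negative one. The slopes and the differences were estimated on the same libraries, and the genes were selected by their difference as measured. Such selection by itself favours fewer genes at equal score and slopes of the opposite sign. The part of maturity in these counts was not tested. The SD over genes of the log2 fold change was 0.33 as measured and 0.28 at equal score, and the biological coefficient of variation, edgeR's measure of spread between libraries, was 0.174 without the score and 0.141 with it.

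In the proliferation list the difference was smaller at equal score. As measured, all 23 of its genes were higher in C362A, 14 of them at an unadjusted p under 0.05, with a median of 0.28. At equal score 19 were higher, 0 reached an unadjusted p under 0.05 and the median was 0.04, beside −0.00 over all genes. Over all genes, 8.08% were higher at that unadjusted level as measured and 3.96% at equal score. The list's median slope was −0.53, so a smaller difference at equal score follows from the slopes and the lower mean score of C362A. With 1 library left out, the median at equal score ran from −0.025 without wildtype replicate 1 to 0.112 without C362A replicate 5, with 9 to 19 genes higher and 0 to 8 at an unadjusted p under 0.05. None was called in either fit. Bub1b, a spindle checkpoint kinase, was at 165, 124, 156, 146 and 94.3 CPM in C362A and at 113, 112, 88.8, 84.5 and 121 CPM in wildtype. Its log2 difference was 0.40 (SE 0.13) as measured and 0.17 (SE 0.11) at equal score, and it passed neither edgeR test after adjustment (adjusted p = 0.285 and 0.815). Inside run 1, where the mean scores differed by 0.004, the proliferation list differed by −0.02 log2 units, and in run 2 by 0.45.

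Smooth muscle and fibroblast genes had positive medians in both fits. The median of 12 smooth muscle genes was 0.23 as measured and 0.13 at equal score, and that of 16 fibroblast and matrix genes 0.22 and 0.13. The medians at equal score depended on single libraries. The smooth muscle median was 0.059 without wildtype replicate 1 and 0.214 without C362A replicate 5, and the fibroblast median 0.073 without wildtype replicate 5 and 0.242 without wildtype replicate 1. No member of either list was called in either fit. Muc2, the mucin of goblet cells, was at 14.6, 36.4, 19.9, 21.7 and 29.2 CPM in C362A and at 17.6, 42.4, 52.9, 87.3 and 47.6 CPM in wildtype. Its log2 difference was −1.02 (SE 0.34) as measured and −0.36 (SE 0.25) at equal score, with adjusted p = 0.285 and 0.817 by edgeR. The inflammasome and pyroptosis list, with a median of −0.24 as measured, had one of −0.01 at equal score. Naip5 was 32.5, 52.2, 38.5, 40.7 and 88.1 CPM in C362A and 50.4, 81.6, 78.1, 110 and 72.2 CPM in wildtype.

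Interferon-stimulated genes behaved the opposite way, with a larger difference once the score was held equal. As measured, 25 of 33 were higher in C362A, 8 at an unadjusted p under 0.05, and the median log2 fold change was 0.32. At equal score 33 of 33 were higher, 27 at an unadjusted p under 0.05, and the median was 0.83. Over all genes, 8.08% were higher at that unadjusted level as measured and 3.96% at equal score. The median slope of the list was 1.09, and C362A had the lower mean score. A larger difference at equal score follows from these values and is no result apart from the slopes. After adjustment over all genes 1 of the 33, Ddx60, passed in edgeR, and 9 passed in DESeq2. The list mean in C362A replicates 1 to 5 was 1.708, 2.292, 1.813, 2.055 and 2.775 log2 CPM, and in wildtype 1.510, 1.824, 1.886, 2.426 and 1.452. The highest wildtype value was that of replicate 4, the most mature library.

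The interferon-stimulated list was also compared inside each run, with no covariate. The boundary between the runs is inferred, as described above, and the groups inside them are small. In run 1 the C362A mean lay 0.84 log2 units above wildtype (2 and 2 libraries). Genotype and Y-linked expression cannot be told apart in that run, as described above. In run 2 the difference was −0.04 (3 and 3 libraries). At equal score the median stayed between 0.62 and 0.91 when each of the 15 libraries was left out in turn, with 31 to 33 genes higher. As measured, it ranged from 0.16 without C362A replicate 5 to 0.48 without wildtype replicate 4. Under a filter of 5 CPM in 5 libraries only 14 of the genes were left. As measured, 8 of these were higher with a median of 0.08, and at equal score 14 were, with a median of 0.35. With the Y-linked mean as a further covariate the median of all 33 at equal score was 0.61.

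Ddx60, a helicase gene induced by interferon, was at 0.903, 2.62, 1.95, 2.55 and 3.15 CPM in C362A and at 0.810, 1.23, 1.52, 4.15 and 1.31 CPM in wildtype. The groups overlapped, since wildtype replicate 4 was the highest of all. Its difference was 0.32 (SE 0.38, adjusted p = 0.678) as measured and 1.21 (SE 0.21, adjusted p = 0.0394) at equal score by edgeR. That call held in 6 of 26 alternatives. Ifit2, whose protein blocks viral translation, was at 14.6, 11.5, 14.9, 15.6 and 14.1 CPM against 11.7, 11.5, 9.998, 8.76 and 12.2 CPM. Its slope was not called, and its difference was 0.38 as measured and 0.29 at equal score (adjusted p = 0.285 and 0.791 by edgeR). Ifit3b, its neighbour on chromosome 19, rests on under 2 CPM in every library, at 0.187 to 1.08 CPM in C362A and 0.0595 to 0.260 CPM in wildtype (adjusted p = 0.285 and 0.304 by edgeR).

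A further pair of genes passed at equal score and not as measured. Lgals9, which encodes galectin-9, a lectin abundant in the epithelium, was at 84.8, 102, 89.7, 93.2 and 155 CPM in C362A and at 58.2, 100, 98.5, 168 and 74.1 CPM in wildtype. The difference was 0.07 (SE 0.25, adjusted p = 0.904) as measured and 0.63 (SE 0.11, adjusted p = 0.0489) at equal score by edgeR, with a slope of 1.11. As measured its direction turned when C362A replicate 5, wildtype replicate 1 or wildtype replicate 5 was left out (−0.11, −0.07 and −0.02), and the call at equal score was lost in 19 of 27 alternatives. Fpr2, a formyl peptide receptor of myeloid cells, was below the level set for naming genes and is given because it was called. It was at 0.560, 0.784, 1.503, 1.79 and 0.899 CPM against 0.202, 0.274, 0.446, 0.360 and 0.266 CPM (1.83 as measured, adjusted p = 0.0767, and 2.21 at equal score, adjusted p = 0.0463, by edgeR).

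For most genes called as measured the difference was similar once the score entered. Mmp9 went from 1.23 to 1.52 (adjusted p = 1.67e-05) and Dnase1l3 from 1.30 to 1.65 (adjusted p = 7.35e-05), both by edgeR, and these were the 2 genes of the 15 with a called slope, 0.62 and 0.80. Cxcl10 was at 2.54 and 2.46, Slamf8 at 2.18 and 2.26, Mgl2 at 1.87 and 2.02, Spic at 2.01 and 2.08, and Clec4n at 1.06 and 1.18. These 7 passed at equal score under every alternative in which they were checked (26 or 27 each). Those left out each C362A and wildtype library in turn, but the fits without a single knockout library were not checked by gene. The filter of 5 CPM in 5 libraries removed all of the 7 but Mmp9 and Dnase1l3. Serpina3f, Serpina3g, Apobec3, Adgre1 and Madcam1 also passed at equal score but lost the call in 6 to 17 alternatives. Ccl12 (1.65 and 1.48) and Il2rg (0.75 and 0.76) kept their size and missed the threshold at equal score, with adjusted p = 0.0643 and 0.0615 by edgeR.

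**Figure D3:**
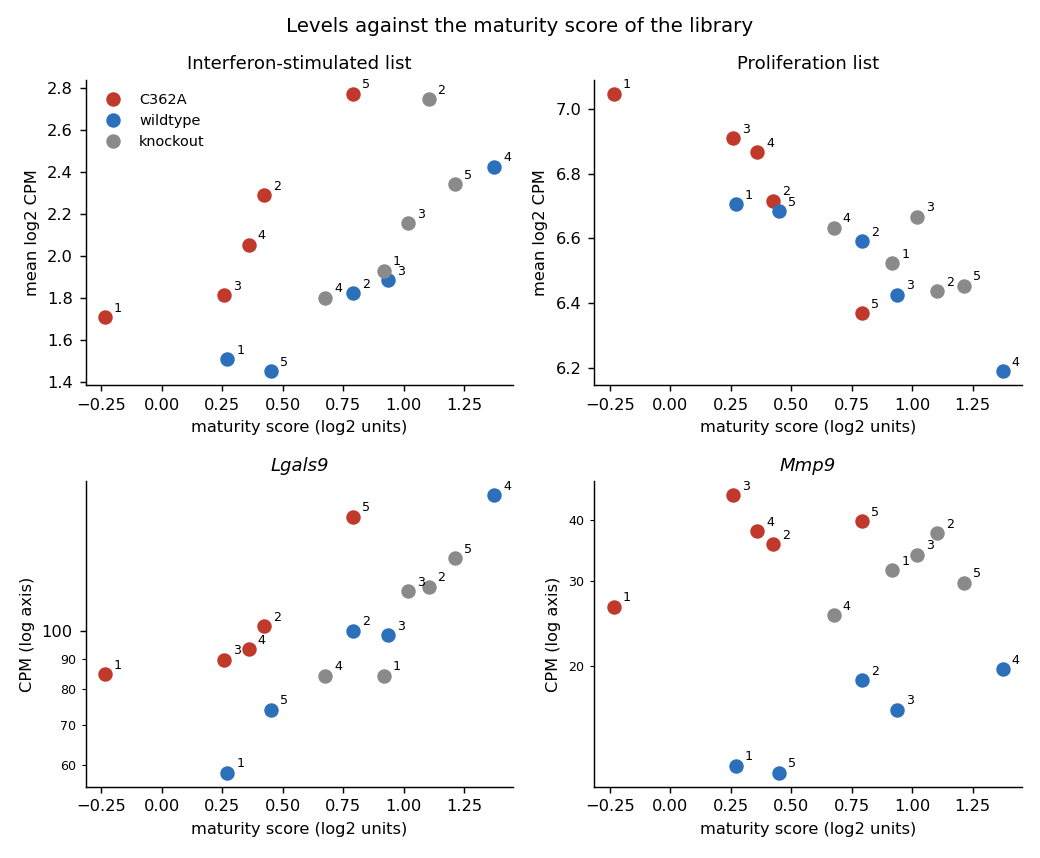
List means (top, log2 CPM) and CPM of 2 genes (bottom, log axis) against the maturity score of each library, numbered by replicate. Interferon-stimulated genes and Lgals9 are higher in libraries of higher score, with the C362A points above wildtype points of like score, proliferation is lower in libraries of higher score, and Mmp9 is at 26.5 to 45.1 CPM in C362A against 11.99 to 19.6 in wildtype.

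Other immune lists differed in how far the score touched them. The interferon-gamma GTPase list, cell-autonomous defence genes, had 10 of 13 genes higher with a median of 0.41 as measured, and 12 of 13 with a median of 0.51 at equal score. Irgm1, a member of that family, was at 26.7, 27.6, 28.4, 26.1 and 27.7 CPM in C362A and at 21.7, 20.7, 18.9, 18.8 and 21.5 CPM in wildtype. Its groups did not overlap, and it missed the threshold in both fits (0.42, adjusted p = 0.0583, and 0.40, adjusted p = 0.153, by edgeR). Of 22 NF-kB and cytokine response genes, 16 were higher with a median of 0.20 as measured and 19 with a median of 0.27 at equal score. The calls in that list were Cxcl10 and Ccl12 as measured and Cxcl10 at equal score. The MHC class I list had a median of −0.08 as measured, which turned to 0.17 without wildtype replicate 4, and of 0.21 at equal score. No member was called.

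Mast cell and neutrophil genes rested on 2 libraries. The mast cell and basophil mean was 2.306 and 2.158 log2 CPM in C362A replicates 3 and 4, and 0.739 to 0.903 in the other 3, against 0.322 to 1.130 in wildtype. Mcpt4, a mast cell protease, was at 1.56, 0.676, 3.34, 2.55 and 0.479 CPM in C362A and at 0.376 to 0.719 CPM in wildtype (1.72, adjusted p = 0.285 as measured and 0.743 at equal score by edgeR). The medians of 8 mast cell genes were 0.85 and 1.14 in the 2 fits and those of 14 neutrophil genes 0.89 and 1.29. Without C362A replicate 3 the mast cell median as measured was 0.53. C362A replicate 4 is also the library with squamous keratin reads, and their part in these values was not tested.

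**Figure D4:**
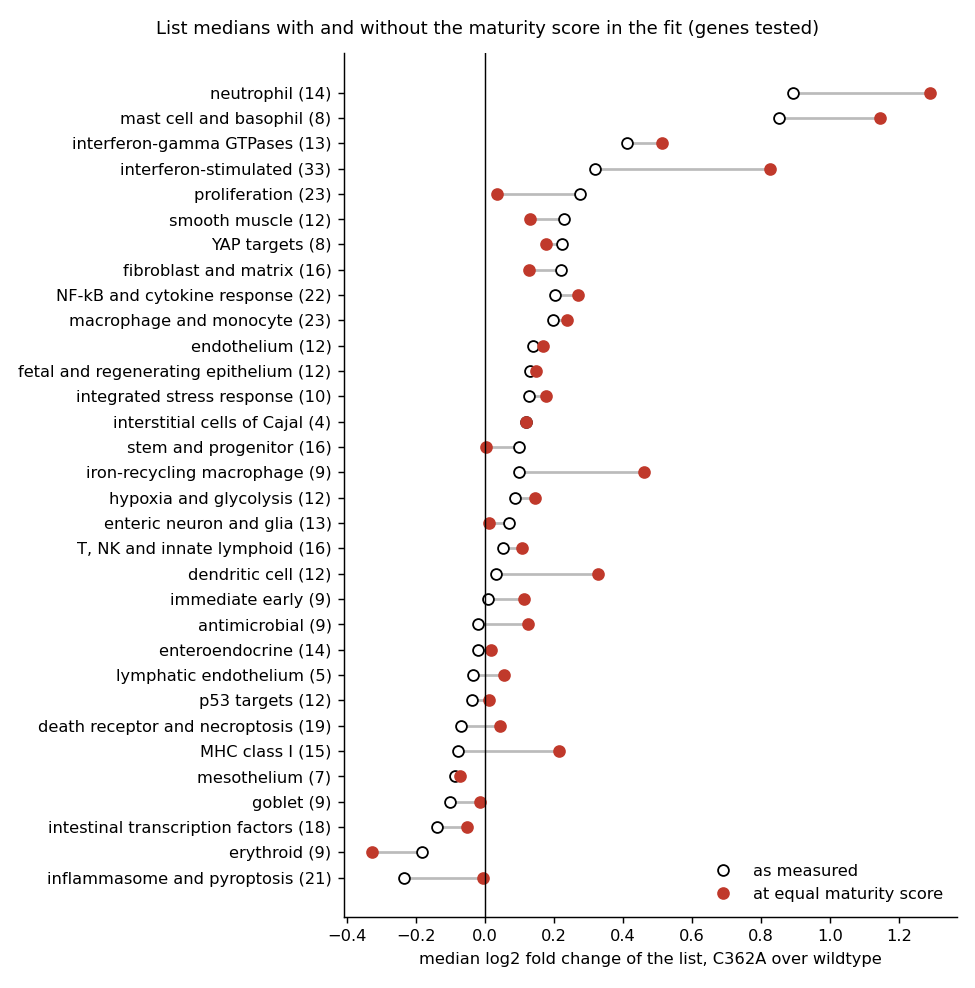
Median log2 fold change of each list shown, C362A over wildtype, as measured (open) and at equal maturity score (filled), with the number of genes tested. The interferon-stimulated median moves from 0.32 to 0.83 and the proliferation median from 0.28 to 0.04.

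The number of genes called as measured depended on 1 library. Without C362A replicate 5, 1807 of 18510 genes were called (9.76%), 794 higher and 1013 lower, while 17 of 18468 were called at equal score (0.0921%). That replicate had the highest score of its group, 0.791, and the score difference without it was −0.563. Of the 1807, 1799 were not score genes. Of those, 630 had a called slope opposite in sign to their difference and 3 one of the same sign. At equal score 15 of the 1799 passed after adjustment and 1165 had an unadjusted p under 0.05 in the same direction. Their median absolute log2 fold change was 0.49 as measured and 0.30 at equal score. Most of the 1799 kept their direction at the unadjusted level. They were selected by their difference as measured and estimated again on the same libraries. Such selection by itself favours smaller differences at equal score and slopes of the opposite sign. The part of maturity in these differences was not tested.

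Replicate 5 also differed from the other C362A libraries in stress genes. Trib3, a target of the integrated stress response, was at 12.9 CPM in it and at 2.28 to 4.45 CPM in the other 4. Chac1, a glutathione-degrading enzyme of the same response, was at 8.27 CPM against 1.44 to 2.86. Slc2a1, the glucose transporter GLUT1, was at 279 CPM against 173 to 196. The part of these values in the change of the count was not tested. Leaving out any other C362A or wildtype library gave 7 to 14 calls as measured, and leaving out any of the 10, replicate 5 included, gave 7 to 17 at equal score. Without the 2 libraries short of posterior Hox transcripts, 13 and 10 genes were called in the 2 fits.

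**Figure D5:**
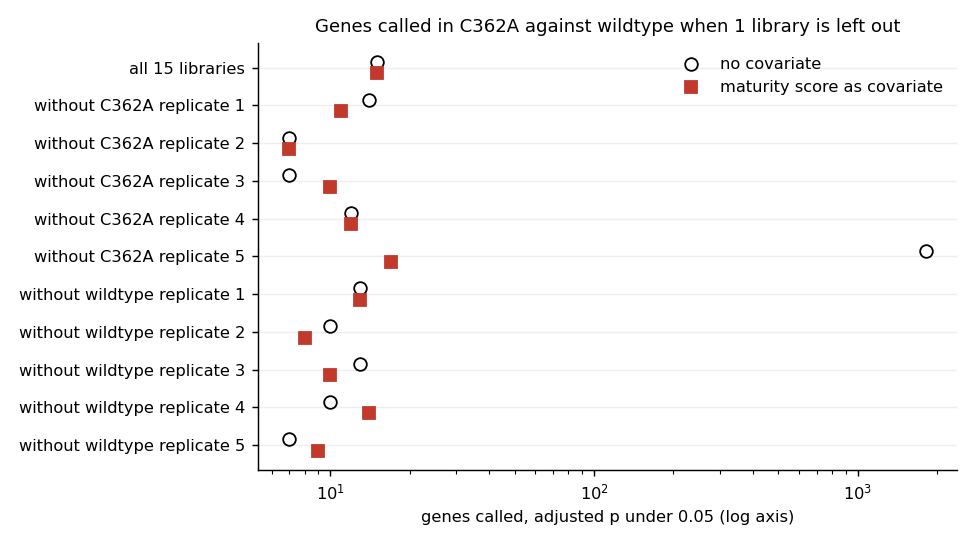
Genes called in C362A against wildtype (log axis) with all 15 libraries and without each C362A or wildtype library, with no covariate (circles) and with the maturity score as covariate (squares). Without C362A replicate 5 the count is 1807 with no covariate and 17 with the score.

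With all 15 libraries, the genes higher in C362A were not called against the knockout. In that contrast 2 of 18370 genes passed (0.0109%) by edgeR, Casp8 itself and Ddit4, a stress-induced inhibitor of mTORC1. This count also depended on 1 library, and was 805 without C362A replicate 5. Ddit4 was at 56.5, 50.3, 53.7, 48.9 and 61.1 CPM in C362A and at 34.2 to 37.2 CPM in knockout, without overlap (0.59, SE 0.07, adjusted p = 0.00374 by edgeR), and at 44.8 to 55.1 CPM in wildtype. For all 15 genes called against wildtype the knockout mean lay between the other means. Their log2 fold changes against knockout were 0.21 to 1.21, with adjusted p from 0.11 to 0.59 by edgeR. In knockout against wildtype, 7 of 18370 genes passed by edgeR, 5 higher and 2 lower. Of the 15, Cxcl10 (1.45, adjusted p = 0.0143), Slamf8 (1.605, 0.0144), Mmp9 (1.004, 0.0276) and Clec4n (0.84, 0.0308) also passed, higher in knockout. The rest of the 15 did not. Also called were Ccn1 (0.51), Casp8 (−2.28) and Ddit4 (−0.47, adjusted p = 0.0276). Ddit4 was not called in C362A against wildtype (0.12, adjusted p = 0.412 by edgeR). Contrasts with a group in common share its libraries.

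The caspase-8 complex itself differed little at the RNA level. The log2 difference from wildtype was −0.00 (SE 0.08) for Casp8, −0.08 for Cflar, which encodes the inhibitor cFLIP, 0.02 for the adaptor gene Fadd, 0.01 for the kinase gene Ripk1 and −0.05 for the necroptosis kinase gene Ripk3. None of these passed edgeR's test. Over 19 death receptor and necroptosis genes, 6 were higher as measured and 13 at equal score, with medians of −0.07 and 0.04 and 0 calls in either fit.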

How the data were processed

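RNA from E16.5 mouse small intestine was sequenced in 15 libraries. Per the file headers, the deposited counts are reads aligned uniquely within each gene's model, and the deposited RPKM values are length-scaled and adjusted by size factors. Per the submitters' processing notes, GSNAP and GRCm38 were used, with no version given. Single-end reads of 50 bases came from an unstranded poly(A) kit, per the labels' protocols. Of 36528 gene IDs, 31049 were named from RefSeq, 78 from GENCODE and 5401 not at all (1.68 to 1.95% of counts). RPKM served only to compare levels between genes.

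Counts were filtered with filterByExpr (minimum count 10, minimum total 15), scaled by TMM and tested with edgeR 4.0.16 (R 4.3.3), robust quasi-likelihood, with all 15 libraries in 1 fit and Benjamini-Hochberg adjustment at 0.05. A second fit added the centred maturity score, with 1 slope for all genotypes and without the score's own genes. Log2 CPM used a prior count of 2. DESeq2 1.42.0 and limma 3.58.1 (voom) were alternatives, beside other scalings, filters, scores, covariates and left-out libraries. The scripts were tested on simulated data. Samples were grouped by the genotype labels, and replicates were numbered in accession order. Replicates of a group differed beyond counting noise in all 30 pairs (chi-square per degree of freedom 9.33 to 116.254).

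The 44 gene lists and the genes described were chosen with earlier results of these data known, and 2 of 598 list entries were not found. The genes named are Casp8 and its partners, all called genes (at equal score, those whose mean log2 CPM reached 1), the 5 genes of smallest p per slope direction, the most abundant epithelial genes and, of each other list, the 2 members of smallest p in C362A against wildtype. Fpr2, Ddit4, Trib3, Chac1, Slc2a1, Krt13, Hoxa10 and the tissue markers were added after values were seen.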

Additional observations from a re-analysis of the deposited data

Results flagged for a closer look

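In 12 of 110 sets of 5 libraries, 1 library lay far from the other 4 of its group by Dixon's criterion. Chance gives about 1 in 20 where sets are independent and normally distributed. These sets share libraries, and Ccl12 and the unnamed ID of equal counts are flagged separately. The rates are therefore not comparable. Among the list means (log2 CPM), the squamous epithelium list was at 4.41 in C362A replicate 4 and at −0.684 to 0.309 in the others. The distal gut list was at −2.47 in C362A replicate 1 and at 1.132 to 1.782 in the others, and the hypoxia and glycolysis list at 6.686 in C362A replicate 5 against 5.903 to 6.032. The Y-linked list was at −3.888 in wildtype replicate 5 against 4.848 to 5.062.

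Among single genes, C362A replicate 5 stood apart for Fabp1 (2855 CPM against 1166 to 1532), Slc46a3 (52.59 against 9.84 to 21.5), Lgals9 (154.5 against 84.8 to 101.8) and Mlkl (0.839 against 0.187 to 0.361). C362A replicate 4 was low for Ccl12 and for the unnamed ID of equal counts, at 0.7527 CPM each against 1.199 to 1.262. Wildtype replicate 4, the most mature library, was high for Ddx60 (4.151 CPM against 0.810 to 1.52). Wildtype replicate 3 was high for Cdh1, the gene of E-cadherin (679.2 CPM against 571 to 592).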

How the results depend on the processing

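The 15 calls in C362A against wildtype became 54 by DESeq2, 1 under a filter of 5 CPM in 5 libraries and 7 with the Y-linked covariate. Leaving out 1 library gave 7 to 1807. At equal score the 15 calls became 57, 2 and 8 under the same settings and 7 to 17 with 1 library left out: 7 without C362A replicate 2, 8 without wildtype replicate 2 and 9 without wildtype replicate 5. The stricter filter tests fewer genes and removes most called genes, which are expressed at a low level. The cause of the other shifts was not tested. Against knockout, the 2 calls became 1 with the score and without C362A replicate 5, and 2 to 805 with 1 library left out, 805 without C362A replicate 5. The score difference was 0.004 within run 1, and −0.569 to −0.293 with 1 library left out. The count of slopes stayed within 1.5 times under all 21 alternatives, at 3672 to 4956. The difference of Lgals9 as measured was −0.109 to 0.336 with 1 library left out, and fell below 0 without C362A replicate 5 (−0.109), wildtype replicate 1 (−0.069) or wildtype replicate 5 (−0.017). Low counts limit Ccl12, Serpina3f, Spic and Mgl2. No paired analysis was possible because the labels give no replicate numbers. Fits without knockout libraries, without the 2 libraries short of posterior Hox transcripts and with the score against knockout without C362A replicate 5 were added after the data were seen.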

Other observations

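Smaller lists not described above also differed between the fits. Of 9 genes of iron-recycling macrophages, 6 were higher in C362A as measured (median 0.10) and 8 at equal score (median 0.46), and 1, Spic, was called in both. Cd163, the haemoglobin scavenger receptor and a member of that list, had the opposite direction, with means of 0.472 CPM in C362A and 1.16 in wildtype. Its log2 difference was −1.28 (SE 0.38, adjusted p = 0.285 by edgeR) as measured and −0.71 at equal score (adjusted p = 0.794 by edgeR). Cd163 was named after its values were seen. Of 12 dendritic cell genes, 7 and 10 were higher, with medians of 0.03 and 0.33 and 0 calls. Of 8 YAP target genes, 8 were higher as measured (median 0.23) and 7 at equal score (median 0.18), with 0 calls. Endothelial genes (12 tested) had medians of 0.14 and 0.17 and 0 calls.

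The Y-linked genes Eif2s3y and Ddx3y did not keep 1 ratio in the libraries that held both. C362A replicate 4 had 305 counts of Eif2s3y and 1545 of Ddx3y, and C362A replicate 1 had 716 and 1023. Wildtype replicates 1 to 4 had 1103 to 1307 and 1091 to 1478.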
